A study of Mus musculus with 8 samples.

Results

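Plasminogen activation and coagulation were followed through 9 genes, chosen by symbol: Plau, Plaur, Serpinb2, F3, F5, F7, F10, F13a1 and Thbd. All 9 were measured, each by 1 probe set that named no other gene, out of 21442 genes tested. They were measured on 8 expression arrays of sorted mouse myeloid cells, with 2 arrays for each of 4 populations. F4/80-high tumour-associated macrophages (F4/80-high TAM) and Ly6C-high tumour-infiltrating cells (Ly6C-high TAM) were sorted from orthotopic colorectal tumours, resident macrophages (colon macrophages) from lamina propria of steady-state colon, and Ly6C-high spleen monocytes from healthy spleen. All mice were untreated C57BL/6 animals of genotype Cx3cr1gfp/+, in which 1 copy of the fractalkine receptor gene carries a green fluorescent reporter, so every population shares that allele. Both replicates of each tumour population were labelled male. The colon arrays were labelled male (replicate 1) and female (replicate 2), and the spleen arrays male (replicate 1) and mixed (replicate 2). The labels used here give neither the animals' age nor the source of the tumour cells. Beyond the mixed sex of spleen replicate 2, they do not say whether an array held 1 animal or a pool.

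Plasmin is the protease that dissolves fibrin and cleaves other matrix proteins. Urokinase, bound to its receptor on the cell surface, makes plasmin from plasminogen, and inhibitors of the serpin family stop urokinase. Coagulation starts when tissue factor binds factor VII, which leads to activation of factor X. Activated factor X with its cofactor factor V converts prothrombin to thrombin, thrombin makes fibrin, and factor XIII crosslinks it. Monocytes and macrophages are known to make several of these proteins outside the liver, among them tissue factor, urokinase and its receptor, and the A subunit of factor XIII.

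The mean log2 value of 10 macrophage and monocyte markers lay between 11.81 and 12.42 on the 8 arrays, with 11.93 and 11.81 in colon macrophages. It pools genes of monocytes with genes of macrophages, so it does not check the sort of one population from another. Markers of other cells were not at background everywhere. The mean of 14 measured epithelial markers (of 15 listed) was 11.49 and 12.21 on the colon arrays, against 6.92 and 8.75 in F4/80-high TAM, 7.08 and 9.40 in Ly6C-high TAM, and 7.10 and 6.37 in spleen monocytes (replicates 1 and 2). The mean of 10 fibroblast markers was 7.66 and 8.77 in F4/80-high TAM, 8.21 and 9.52 in Ly6C-high TAM, 8.10 and 8.36 in colon macrophages, and 6.73 on both spleen arrays. The replicate 2 arrays of both tumour populations thus stood apart from their replicate 1 arrays, and some differences are also given without them. Such bulk arrays cannot separate fewer cells of a type from less RNA per cell.

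In colon macrophages against spleen monocytes, Plau and F3 were higher and F10, F5 and Thbd lower, so 5 of the 9 genes passed the threshold of a limma adjusted p of 0.05 or less with a fold of 2 or more, where 10.9% of all genes did (6.93% higher and 4.0% lower). Against the same spleen arrays, 5 genes passed in Ly6C-high TAM (Plau, Serpinb2, F3 and F7 higher, F5 lower; 4.5% of all genes, 2.88% higher and 1.62% lower) and 3 in F4/80-high TAM (Plau higher, F5 and Thbd lower; 6.95%, 4.58% higher and 2.37% lower). These 3 comparisons share the spleen arrays. Against the colon arrays, 4 genes were higher in Ly6C-high TAM (Serpinb2, F7, F10 and F5; 6.9% of all genes, 2.74% higher and 4.16% lower) and 2 in F4/80-high TAM (F7 and F10; 6.39%, 2.67% higher and 3.72% lower). These likewise share the colon arrays. Between the tumour populations none of the 9 passed in limma (0.266% of all genes did, 0.168% higher and 0.0979% lower in F4/80-high TAM), while 4 (Plaur, Serpinb2, F5 and F10) had an unadjusted p under 0.05, as did 8.57% of all genes. Single arrays moved these counts. The 2 genes higher in F4/80-high TAM than in colon macrophages became 0 without colon replicate 2, and 1 without colon replicate 1, F4/80-high TAM replicate 2 or either spleen array. The 5 genes of Ly6C-high TAM against spleen monocytes became 1 (Plau) without either spleen array and 3 without either colon array. The 3 genes of F4/80-high TAM against spleen monocytes became 2 without either spleen array and 5 without either Ly6C-high TAM array. The 0 genes between the tumour populations became 3 (Serpinb2, F5 and F10, all lower in F4/80-high TAM) without F4/80-high TAM replicate 2. A replicate block on the tumour arrays alone also gave 3 there, though the labels do not tie a replicate number to an animal. With both tumour replicate 2 arrays removed, each tumour population is a lone array, assumed to vary like the colon and spleen arrays. Counts from that setting are not given. The shares of all genes above are those of the main fit. None was computed with arrays left out or with a block.

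**Figure D1:**
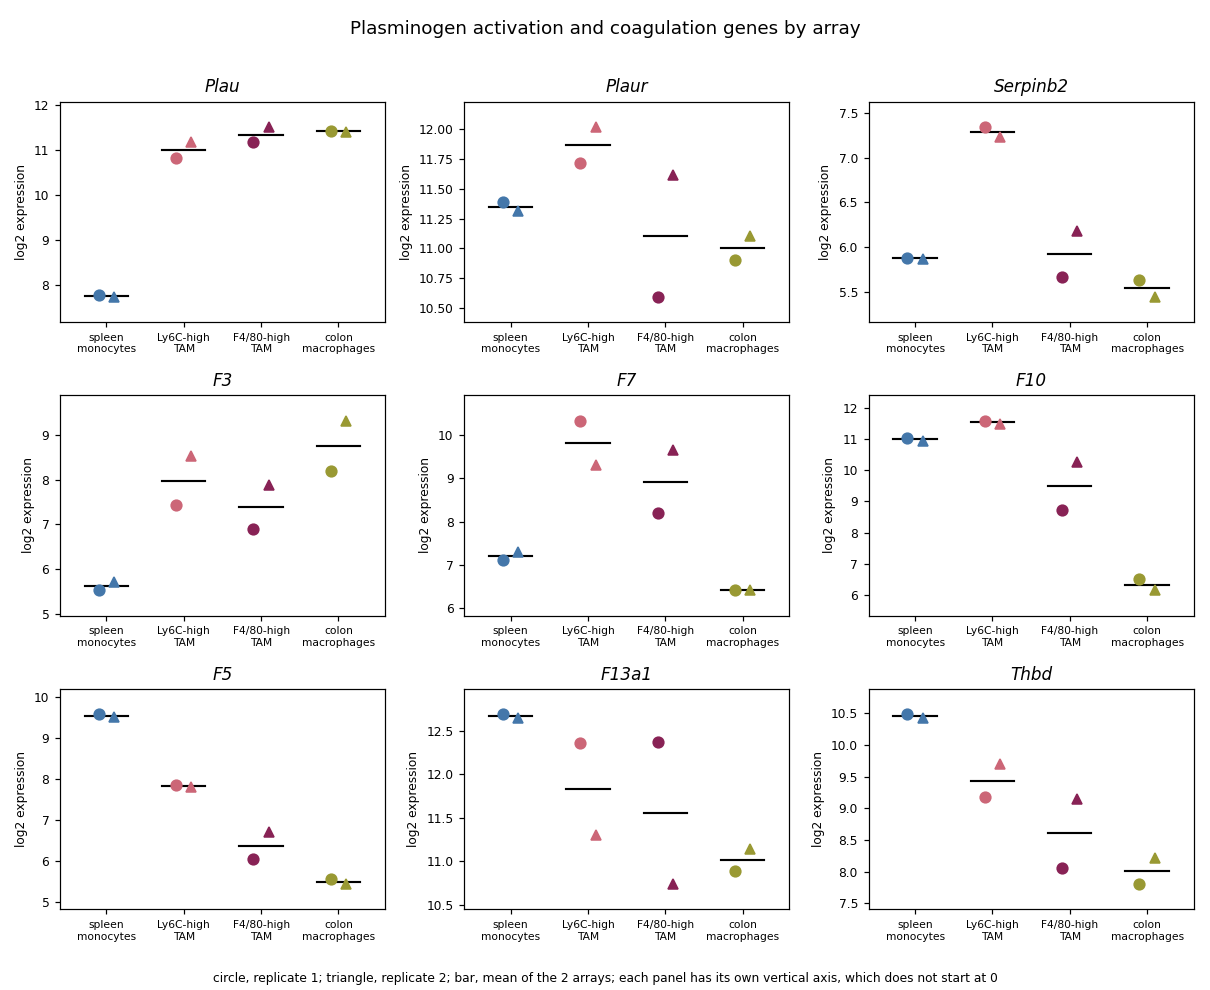
Log2 expression of the 9 genes on each array, by population, with circles for replicate 1, triangles for replicate 2 and a bar at the mean of both. Plau was low in spleen monocytes alone, Serpinb2 stood higher in Ly6C-high TAM, and F5 stepped down from spleen monocytes through Ly6C-high and F4/80-high TAM to colon macrophages.

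**Figure D2:**
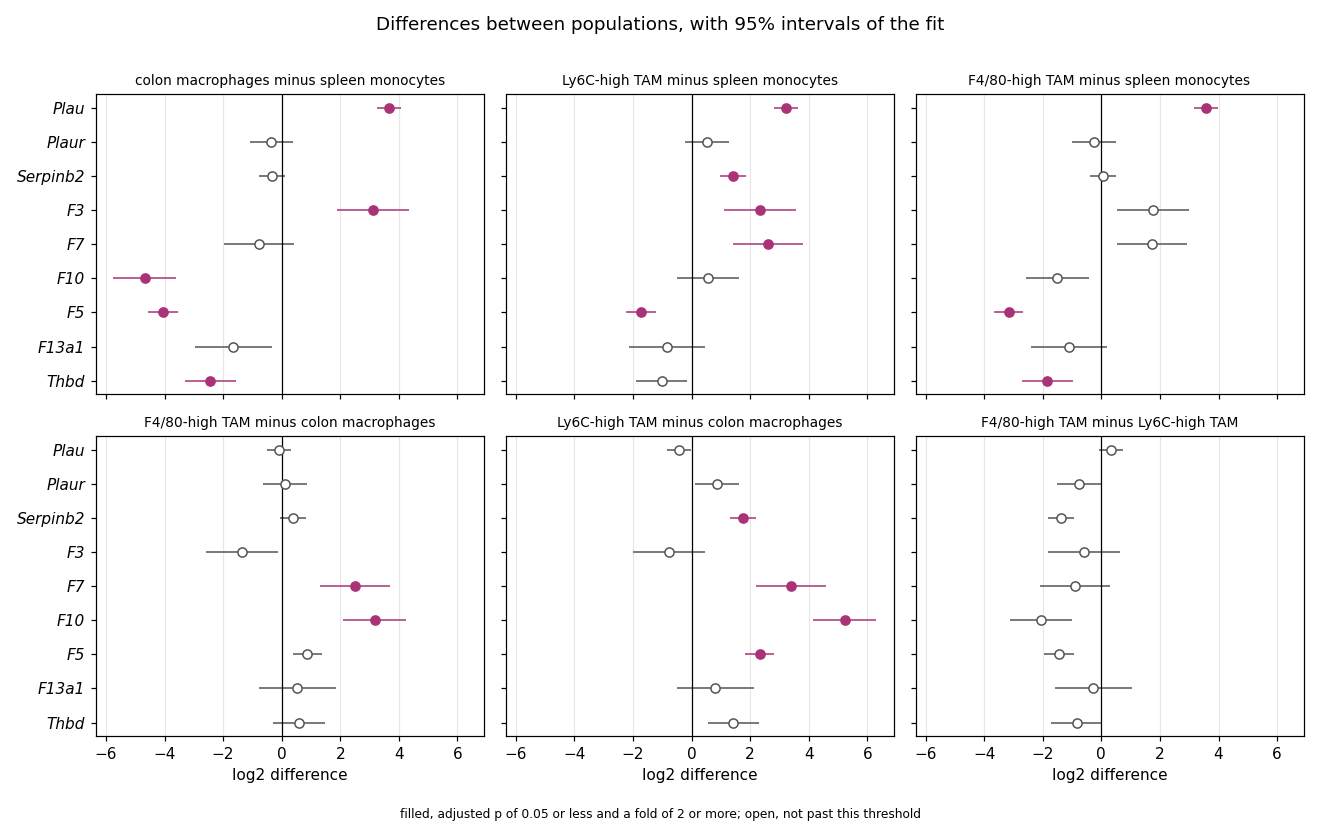
Log2 differences of the 9 genes in the 6 comparisons of populations, with 95% intervals of the limma fit. Filled points passed an adjusted p of 0.05 or less with a fold of 2 or more, and no point passed between the tumour populations.

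Plau encodes urokinase, the protease that converts plasminogen to plasmin. Its log2 values were 7.78 and 7.74 in spleen monocytes, 10.82 and 11.18 in Ly6C-high TAM, 11.16 and 11.50 in F4/80-high TAM, and 11.42 and 11.40 in colon macrophages. Every tissue-derived array lay more than 3 log2 units above both spleen arrays. Against spleen monocytes, Plau was 12.5-fold higher in colon macrophages (3.65 ± 0.17 log2 units, SE with n = 2 arrays each, limma adjusted p = 0.000157). It was 11.9-fold higher in F4/80-high TAM (3.57 ± 0.17, adjusted p = 0.00016) and 9.42-fold higher in Ly6C-high TAM (3.24 ± 0.17, adjusted p = 0.000332). All 3 calls held in each of the 17 other settings tried. Among the tissue populations no pair differed past the threshold. F4/80-high TAM minus colon macrophages was -0.08, with a 95% interval of -0.49 to 0.33, and Ly6C-high TAM minus colon macrophages was -0.41 (-0.82 to -0.0015). Beside these values, the epithelial marker mean on the tumour replicate 1 arrays was 6.92 (Plau 11.16) and 7.08 (Plau 10.82), against 7.10 and 6.37 on the spleen arrays. In both tumour populations replicate 2 was above replicate 1 in Plau and in the epithelial and fibroblast marker means, and the part of those cells in the Plau signal was not tested.

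Plaur encodes the urokinase receptor, a surface protein held by a lipid anchor. Its values were 11.39 and 11.31 in spleen monocytes, 11.71 and 12.02 in Ly6C-high TAM, 10.60 and 11.61 in F4/80-high TAM, and 10.90 and 11.10 in colon macrophages. The values ran from 10.60 to 12.02, highest on the Ly6C-high TAM arrays, and the F4/80-high TAM replicates lay 1.01 apart and spanned the colon and spleen values. No comparison passed. The largest difference was Ly6C-high TAM minus colon macrophages (0.86, 95% interval 0.11 to 1.61, limma unadjusted p = 0.0298, adjusted p = 0.144), and F4/80-high TAM minus Ly6C-high TAM was -0.76 (limma unadjusted p = 0.0474, adjusted p = 0.577). Ly6C-high TAM minus spleen monocytes was 0.51 (-0.23 to 1.26).

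Serpinb2 encodes plasminogen activator inhibitor 2, an inhibitor of urokinase that monocytes and macrophages make when activated. Its values were 5.88 and 5.87 in spleen monocytes, 7.34 and 7.23 in Ly6C-high TAM, 5.67 and 6.18 in F4/80-high TAM, and 5.64 and 5.45 in colon macrophages. Both Ly6C-high TAM arrays lay above all 6 others, which overlapped in part, and all values were near or below the array medians of 6.84 to 7.07 over all probe sets. The deposited values carry no detection call, so whether a probe set was above background in its low groups is not known. Folds against values this low are those of the deposited scale and may understate the difference. The same holds for F3 and F5, and for F7 and F10 in colon macrophages. Ly6C-high TAM exceeded colon macrophages 3.35-fold (1.74 ± 0.18, limma adjusted p = 0.00313) in each setting that tested the gene, and spleen monocytes 2.66-fold (1.41 ± 0.18, adjusted p = 0.00751). The latter call was lost without spleen replicate 1 (adjusted p = 0.072) or replicate 2 (adjusted p = 0.0803). Between the tumour populations, F4/80-high minus Ly6C-high, the difference was -1.36 ± 0.18 (adjusted p = 0.0561) and passed without F4/80-high TAM replicate 2 (-1.62, adjusted p = 0.0414). F4/80-high TAM and spleen monocytes did not differ beyond their spread (0.05, 95% interval -0.39 to 0.49).

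F3 encodes tissue factor, the membrane protein that starts coagulation when it binds factor VII. Its values were 5.54 and 5.72 in spleen monocytes, 7.44 and 8.51 in Ly6C-high TAM, 6.90 and 7.87 in F4/80-high TAM, and 8.20 and 9.31 in colon macrophages. Spleen monocytes were below every other array, and replicate 2 was above replicate 1 by 0.97 to 1.11 in each of the other populations. Against spleen monocytes, F3 was 8.74-fold higher in colon macrophages (3.13 ± 0.51, limma adjusted p = 0.00807) and 5.10-fold higher in Ly6C-high TAM (2.35 ± 0.51, adjusted p = 0.0458). In F4/80-high TAM the difference from spleen monocytes was 1.76 ± 0.51 (adjusted p = 0.0796) and passed without either Ly6C-high TAM array (adjusted p = 0.0396). The colon call was lost without colon replicate 2 (adjusted p = 0.0512), spleen replicate 1 (adjusted p = 0.0613) or spleen replicate 2 (adjusted p = 0.0557). The Ly6C-high TAM call was lost when any array but its own replicate 1 was left out. It was lost in 11 of the 17 other settings. The 3 tissue populations did not differ past the threshold, F4/80-high TAM minus colon macrophages being -1.37 (95% interval -2.59 to -0.14, adjusted p = 0.147).

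F3 and the epithelial marker mean are plotted together for each array. Colon replicate 2 had the highest value of each (F3 9.31, markers 12.21), and in both tumour populations replicate 2 was above replicate 1 in F3 and in the markers alike. Other arrays did not follow one order: Ly6C-high TAM replicate 2 had F3 of 8.51 at a marker mean of 9.40, and colon replicate 1 had 8.20 at 11.49. Gut epithelium is known to express tissue factor, and the part of epithelial RNA in the F3 differences was not tested. On the tumour replicate 1 arrays F3 was 6.90 and 7.44 at epithelial means of 6.92 and 7.08, and on the spleen arrays it was 5.54 and 5.72 at 7.10 and 6.37. F3 in Ly6C-high TAM minus spleen monocytes was 1.81 without both tumour replicate 2 arrays. The fibroblast marker mean was also above that of the spleen arrays on every tumour and colon array.

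**Figure D3:**
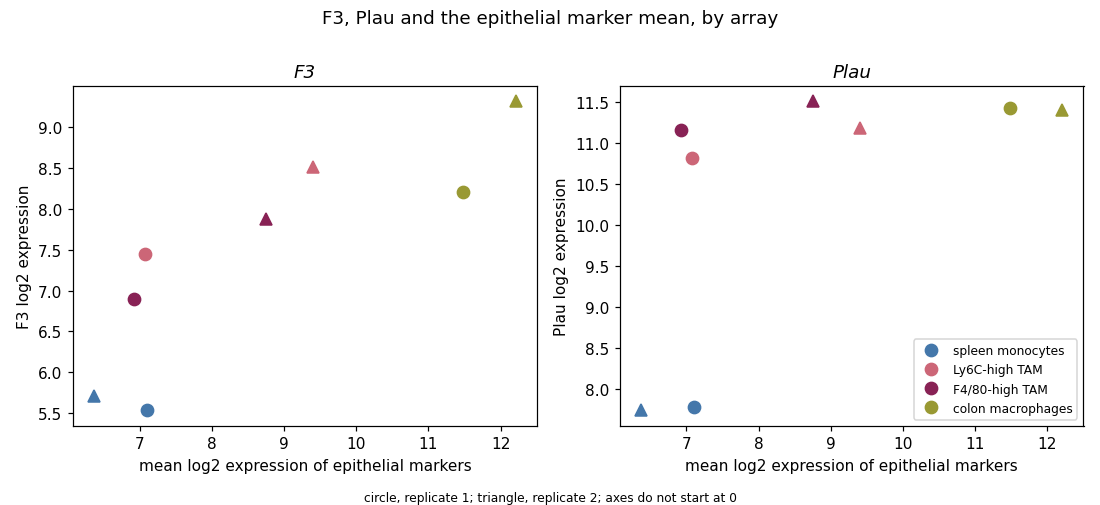
F3 (left) and Plau (right) log2 expression on each array against the mean log2 expression of 14 epithelial markers, with circles for replicate 1 and triangles for replicate 2. F3 was higher on replicate 2 than on replicate 1 in all 4 populations, while Plau lay between 10.82 and 11.50 on all 6 tissue arrays over epithelial means of 6.92 to 12.21.

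F7 encodes coagulation factor VII, the protease that tissue factor binds, known mainly as a liver product. Its values were 7.11 and 7.30 in spleen monocytes, 10.33 and 9.32 in Ly6C-high TAM, 8.20 and 9.65 in F4/80-high TAM, and 6.42 and 6.41 in colon macrophages. All 4 tumour arrays lay above all 4 arrays of healthy tissue, and the tumour populations overlapped. The low colon values carry no detection call, so folds against them are those of the deposited scale. Ly6C-high TAM exceeded colon macrophages 10.6-fold (3.40 ± 0.50, limma adjusted p = 0.009) and spleen monocytes 6.14-fold (2.62 ± 0.50, adjusted p = 0.0296). F4/80-high TAM exceeded colon macrophages 5.67-fold (2.50 ± 0.50, adjusted p = 0.0251), and its difference from spleen monocytes was 1.72 ± 0.50 (adjusted p = 0.0791). That last difference passed without F4/80-high TAM replicate 1 (adjusted p = 0.0288) or either Ly6C-high TAM array (adjusted p = 0.041). The calls were not stable to single arrays. The first was lost without colon replicate 2 (adjusted p = 0.0597), the second without either colon or either spleen array (adjusted p of up to 0.187), and the third without any of those 4 or without F4/80-high TAM replicate 2 (adjusted p of up to 0.117). No difference was called between the tumour populations (-0.90, 95% interval -2.10 to 0.29) or between colon macrophages and spleen monocytes (-0.78, -1.98 to 0.41).

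F10 encodes coagulation factor X, the protease that activates prothrombin. It is the next protein-coding gene after F7 in the RefSeq table, with Proz on its other side. Its values were 11.04 and 10.95 in spleen monocytes, 11.60 and 11.50 in Ly6C-high TAM, 8.72 and 10.26 in F4/80-high TAM, and 6.50 and 6.14 in colon macrophages. The populations did not overlap, in the order Ly6C-high TAM, spleen monocytes, F4/80-high TAM and colon macrophages. Here too the low colon values have no detection call, and folds against them are those of the deposited scale. Colon macrophages were 25.6-fold below spleen monocytes (-4.68 ± 0.45, limma adjusted p = 0.00118). Ly6C-high TAM exceeded colon macrophages 37.6-fold (5.23 ± 0.45, adjusted p = 0.00168), the widest difference among the 9 genes in the 6 comparisons, and both calls held in each of the 17 other settings. F4/80-high TAM exceeded colon macrophages 9.0-fold (3.17 ± 0.45, adjusted p = 0.00941), a call lost without colon replicate 2 (adjusted p = 0.0585). The neighbours at the top of the order did not differ past the threshold (Ly6C-high TAM minus spleen monocytes 0.56, 95% interval -0.51 to 1.62). In F4/80-high TAM the difference from spleen monocytes was -1.51 ± 0.45 (adjusted p = 0.0832), and minus Ly6C-high TAM -2.06 ± 0.45 (adjusted p = 0.187). Both passed without F4/80-high TAM replicate 2 (-2.27, adjusted p = 0.00419, and -2.83, adjusted p = 0.0257).

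The neighbouring genes F7 and F10 therefore shared low values in colon macrophages and calls of higher values in both tumour populations than there. In spleen monocytes F10 was near its level in Ly6C-high TAM, and F7 was lower than there. The sequences from 250 bases before to 50 bases after their RefSeq start sites are shown for this pair (build GRCm38.p6, plus strand, 5′ to 3′). F7 lies at chr8:13025784-13026083 and F10 at chr8:13037058-13037357, and capitals mark motif matches.
F7: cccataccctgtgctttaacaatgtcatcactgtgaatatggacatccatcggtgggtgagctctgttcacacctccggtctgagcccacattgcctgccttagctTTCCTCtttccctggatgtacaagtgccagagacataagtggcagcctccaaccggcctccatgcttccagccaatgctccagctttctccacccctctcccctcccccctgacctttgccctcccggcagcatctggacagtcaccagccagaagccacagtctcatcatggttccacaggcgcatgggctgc
F10: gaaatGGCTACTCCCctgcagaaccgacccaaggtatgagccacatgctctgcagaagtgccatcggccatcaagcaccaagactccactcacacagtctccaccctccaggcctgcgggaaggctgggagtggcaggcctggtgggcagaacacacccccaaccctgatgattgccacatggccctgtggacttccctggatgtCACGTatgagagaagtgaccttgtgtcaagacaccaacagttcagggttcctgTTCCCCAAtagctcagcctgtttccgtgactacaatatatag
The F7 window held a PU.1 motif (GAGGAA, read on the opposite strand, at -144 to -139 from the start site). The F10 window held no match of that motif. It held a match of the NF-kB motif GGGANNNNCC at -245 to -236, of the hypoxia response element ACGTG at -45 to -41 and of the C/EBP motif TTNNGNAA at 9 to 16. Of 32851 mouse promoter windows of this length, 28.3% held the PU.1 letters, 20.7% the NF-kB letters, 19.6% the hypoxia letters and 40.7% the C/EBP letters on either strand. These are matches of letters only.

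F5 encodes coagulation factor V, the cofactor of activated factor X. Its values were 9.57 and 9.51 in spleen monocytes, 7.85 and 7.80 in Ly6C-high TAM, 6.05 and 6.70 in F4/80-high TAM, and 5.55 and 5.44 in colon macrophages. The populations did not overlap and fell in that order. On the deposited scale, with no detection call for the low colon values, colon macrophages were 16.5-fold below spleen monocytes (-4.05 ± 0.21, limma adjusted p = 0.000175) and F4/80-high TAM 9.0-fold below (-3.17 ± 0.21, adjusted p = 0.000363). Ly6C-high TAM were 3.29-fold below spleen monocytes (-1.72 ± 0.21, adjusted p = 0.00568) and 5.02-fold above colon macrophages (2.33 ± 0.21, adjusted p = 0.00193). Of these 4 calls, Ly6C-high TAM against spleen monocytes was lost without spleen replicate 1 (adjusted p = 0.0603) or replicate 2 (adjusted p = 0.0589), and the others held in each setting that tested the gene. F4/80-high TAM minus colon macrophages was 0.88 ± 0.21 (adjusted p = 0.0425), a fold of 1.83 that fell short of the fold limit. It passed without F4/80-high TAM replicate 1 (1.20, adjusted p = 0.0225). Between the tumour populations, F4/80-high minus Ly6C-high, it was -1.45 ± 0.21 (adjusted p = 0.066) and passed without F4/80-high TAM replicate 2 (-1.78, adjusted p = 0.037). Platelets also carry factor V. The mean of 9 measured platelet and megakaryocyte markers (of 11 listed) was 6.62 and 6.65 in spleen monocytes and 6.63 to 6.98 on the other arrays. The part of platelet RNA in the F5 values was not tested.

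F13a1 encodes the catalytic A subunit of factor XIII, the transglutaminase that crosslinks fibrin. Its values were 12.68 and 12.64 in spleen monocytes, 12.36 and 11.30 in Ly6C-high TAM, 12.37 and 10.74 in F4/80-high TAM, and 10.89 and 11.14 in colon macrophages. The replicates of F4/80-high TAM lay 1.63 apart and those of Ly6C-high TAM 1.05 apart, replicate 2 being the lower in both. No comparison passed. Colon macrophages minus spleen monocytes came nearest (-1.65 ± 0.55, limma adjusted p = 0.0881) and passed without either F4/80-high TAM array (adjusted p = 0.0272). F4/80-high TAM minus colon macrophages was 0.54 (95% interval -0.77 to 1.85), and without both tumour replicate 2 arrays it was 1.35.

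Thbd encodes thrombomodulin, the membrane receptor that turns thrombin from a clotting into an anticoagulant enzyme. Its values were 10.49 and 10.43 in spleen monocytes, 9.18 and 9.70 in Ly6C-high TAM, 8.06 and 9.15 in F4/80-high TAM, and 7.80 and 8.22 in colon macrophages. Spleen monocytes lay above every other array, Ly6C-high TAM came next, and F4/80-high TAM and colon macrophages overlapped. Colon macrophages were 5.44-fold below spleen monocytes (-2.44 ± 0.36, limma adjusted p = 0.00562), in all 17 other settings. F4/80-high TAM were 3.61-fold below (-1.85 ± 0.36, adjusted p = 0.0231), a call lost without F4/80-high TAM replicate 1 (adjusted p = 0.0567), spleen replicate 1 (adjusted p = 0.142) or spleen replicate 2 (adjusted p = 0.137). Ly6C-high TAM minus colon macrophages was 1.43 ± 0.36 (adjusted p = 0.0538) and passed without either F4/80-high TAM array (adjusted p = 0.0198) or Ly6C-high TAM replicate 1 (adjusted p = 0.0471). Endothelium is the best-known source of thrombomodulin. The mean of 10 endothelial markers was 6.73 and 6.68 in spleen monocytes and 6.88 to 8.17 on the other arrays, and the part of endothelial RNA in the Thbd values was not tested.

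Promoter windows are shown for 3 further genes: F5, which fell stepwise from spleen monocytes to colon macrophages, Serpinb2, which was higher in Ly6C-high TAM, and F3, which was lowest in spleen monocytes. They cover 250 bases before to 50 after the RefSeq start (GRCm38.p6, plus strand), at chr1:164151585-164151884 for F5, chr1:107511173-107511472 for the first of 2 Serpinb2 entries and chr3:121723287-121723586 for F3. Capitals mark motif matches, some of which overlap.
F5: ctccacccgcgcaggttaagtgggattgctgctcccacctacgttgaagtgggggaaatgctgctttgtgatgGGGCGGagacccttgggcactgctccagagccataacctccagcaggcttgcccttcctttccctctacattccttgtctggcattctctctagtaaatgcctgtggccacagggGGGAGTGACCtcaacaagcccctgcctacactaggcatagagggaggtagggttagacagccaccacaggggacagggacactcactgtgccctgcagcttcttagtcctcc
Serpinb2: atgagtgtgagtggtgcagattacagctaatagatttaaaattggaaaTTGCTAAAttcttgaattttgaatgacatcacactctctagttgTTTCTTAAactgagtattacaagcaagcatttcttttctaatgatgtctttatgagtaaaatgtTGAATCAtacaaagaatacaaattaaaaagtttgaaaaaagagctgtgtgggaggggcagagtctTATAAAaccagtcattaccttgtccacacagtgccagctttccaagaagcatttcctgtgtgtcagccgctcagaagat
F3: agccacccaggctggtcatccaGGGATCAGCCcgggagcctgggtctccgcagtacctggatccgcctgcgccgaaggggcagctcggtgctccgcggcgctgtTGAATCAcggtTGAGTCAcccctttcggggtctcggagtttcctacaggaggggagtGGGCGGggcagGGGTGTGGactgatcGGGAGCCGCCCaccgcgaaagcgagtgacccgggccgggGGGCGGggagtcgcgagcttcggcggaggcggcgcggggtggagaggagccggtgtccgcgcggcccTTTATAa
The table held windows for 7 of the 9 genes, with 2 each for Serpinb2 and F13a1. Counts are of genes with a match in any of their windows, while shares are of single windows. An AP-1 motif (TGANTCA) was found in 3 of the 7 (Plaur, Serpinb2 and F3), against 7.81% of all windows, at -94 to -88 in Serpinb2 and at -146 to -140 and -135 to -129 in F3. The NF-kB letters were in 4 of 7 (Plaur, F3, F5 and F10, against 20.7% of all windows). The C/EBP letters were in 4 (Plaur, Serpinb2, F10 and F13a1, against 40.7%), and the PU.1 letters in 3 (Plaur, F7 and F13a1, against 28.3%). The GC box GGGCGG was in 3 (Plaur, F3 and F5, against 35.7% of all windows). The TATA box TATAAA was in Serpinb2 at -29 to -24 and, after the start site, in F3 (13.6% of all windows). The KLF motif CCACACCC was in F3 (3.56%), and GAAANNGAAA, the interferon-stimulated response element, in 0 of 7 (3.44%). Both strands were searched. With 7 genes these counts describe the letters and say nothing of binding.

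The tumour differences of the mature and of the Ly6C-high cells were set against each other, as F4/80-high TAM minus colon macrophages less Ly6C-high TAM minus spleen monocytes. This interaction was called for 3 of the 9 genes at a limma adjusted p of 0.05 or less, where 6.56% of all genes were. For Plau, the tumour difference was -0.08 in the F4/80-high cells and 3.24 in the Ly6C-high cells (interaction -3.31 ± 0.24 SE, adjusted p = 0.00324). For F5, the tumour difference was 0.88 against -1.72 (2.59 ± 0.30, adjusted p = 0.00798), and for F3 it was -1.37 against 2.35 (-3.72 ± 0.73, adjusted p = 0.0358). The Plau call held in every setting in which it was run. The F5 call was lost without spleen replicate 1 (adjusted p = 0.0505) or replicate 2 (adjusted p = 0.0534). The F3 call was lost without any of 6 arrays, the exceptions being colon replicate 1 and Ly6C-high TAM replicate 1 (adjusted p of up to 0.144). F7 rose by similar amounts in both (2.50 and 2.62), and its interaction of -0.12 was not called (adjusted p = 0.947). That of F10 was 2.61 (adjusted p = 0.0604), called without F4/80-high TAM replicate 1 (3.38, adjusted p = 0.0135) or replicate 2 (1.85, adjusted p = 0.0297). Serpinb2 (-1.03, adjusted p = 0.0686) was called without F4/80-high TAM replicate 2 (-1.29, adjusted p = 0.0406). The count of 3 fell without either spleen array, where Plau alone was called. The 2 comparisons of the interaction share no array. F4/80-high TAM were set against colon but Ly6C-high TAM against spleen, so in the latter tumour and organ cannot be told apart. Plau and F3 were also higher in healthy colon macrophages than in spleen monocytes (3.65 and 3.13).

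The other genes of both systems were followed in a list of 75, of which 72 were measured: 32 for plasminogen activation, its inhibitors, receptors and downstream matrix proteases, and 40 for coagulation and its control. In colon macrophages minus spleen monocytes 13 were higher and 3 lower (10.9% of all genes were called), in Ly6C-high TAM minus spleen monocytes 9 and 1 (4.5%), and in F4/80-high TAM minus spleen monocytes 11 and 2 (6.95%). In Ly6C-high TAM minus colon macrophages 8 were higher and 5 lower (6.9%), and in F4/80-high TAM minus colon macrophages 2 and 2 (6.39%). Between the tumour populations 0 passed in limma (0.266% of all genes did), while 14 had an unadjusted p under 0.05, as did 8.57% of all genes. The median log2 difference of the list lay between -0.02 and 0.10 in the 6 comparisons, against -0.08 to 0.05 for all genes. The 4 genes of F4/80-high TAM minus colon macrophages became 0 without colon replicate 1, 1 without colon replicate 2, 2 without F4/80-high TAM replicate 2 and 7 without either Ly6C-high TAM array. The 10 of Ly6C-high TAM minus spleen monocytes became 5 without spleen replicate 2, 6 without spleen replicate 1 and 19 without Ly6C-high TAM replicate 1. The 13 of F4/80-high TAM minus spleen monocytes became 8 and 7 without spleen replicates 1 and 2, and the 13 of Ly6C-high TAM minus colon macrophages became 7 without colon replicate 2 or either spleen array. The 0 between the tumour populations became 1 without Ly6C-high TAM replicate 2.

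Plat, the tissue-type plasminogen activator, had 6.13 and 6.12 in spleen monocytes and 7.15 and 8.67 in Ly6C-high TAM, and passed in no comparison. Thbs1, the matrix glycoprotein thrombospondin 1, was 2.89 higher on the log2 scale in Ly6C-high TAM than in spleen monocytes (limma adjusted p = 0.000887). Mmp12 and Mmp13, a macrophage elastase and a collagenase, were higher in tissue as well. In F4/80-high TAM against spleen monocytes the log2 differences were 4.73 and 4.52, and in colon macrophages against spleen monocytes 3.97 and 5.70. Mmp12 was also higher in Ly6C-high TAM than in spleen monocytes (3.99), and Mmp13 was lower in Ly6C-high TAM than in colon macrophages (-2.99, adjusted p = 0.00627). St14, an epithelial membrane protease, fell by 2.04 in F4/80-high TAM and by 2.30 in Ly6C-high TAM against colon macrophages, beside the falling epithelial markers. Serpinb8 fell by 2.03 in F4/80-high TAM against colon macrophages, where the glycolytic enzyme and plasminogen receptor Eno1 rose by 1.05. The intracellular serpin gene Serpinb6a was 3.66 higher in colon macrophages than in spleen monocytes.

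**Figure D4:**
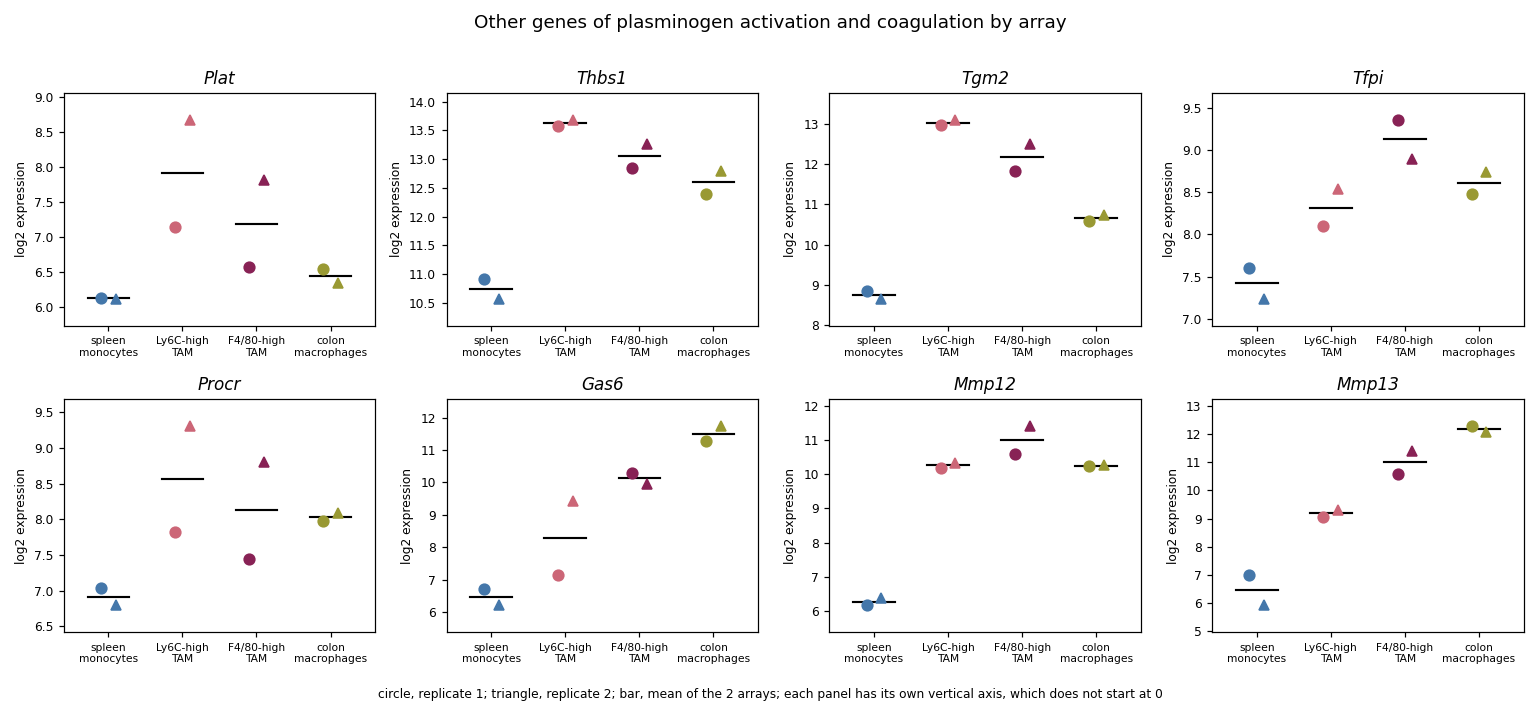
Log2 expression of 8 other genes of plasminogen activation and coagulation on each array, with circles for replicate 1, triangles for replicate 2 and a bar at the mean. All 8 genes were lowest on the spleen arrays, and Plat and Procr were higher on replicate 2 than on replicate 1 in both tumour populations.

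Among the coagulation genes outside the 9, Tgm2, the tissue transglutaminase related to factor XIII, had 8.86 and 8.65 in spleen monocytes, 12.97 and 13.10 in Ly6C-high TAM, 11.82 and 12.51 in F4/80-high TAM, and 10.59 and 10.73 in colon macrophages. The populations did not overlap. It exceeded spleen monocytes by 4.28 in Ly6C-high TAM (limma adjusted p = 0.000332) and 3.41 in F4/80-high TAM (adjusted p = 0.000375), and colon macrophages by 2.37 and 1.50 (adjusted p = 0.0024 and adjusted p = 0.012). Tfpi, the inhibitor of the tissue factor and factor VII complex, was 3.27-fold higher in F4/80-high TAM (1.71 ± 0.24, adjusted p = 0.00681) and 2.28-fold higher in colon macrophages (1.19, adjusted p = 0.0167) than in spleen monocytes. Gas6, a vitamin K-dependent ligand of TAM-family receptor kinases, had 6.73 and 6.22 in spleen monocytes and 11.27 and 11.74 in colon macrophages (5.03 ± 0.67, adjusted p = 0.00384). It was also higher in F4/80-high TAM than in spleen monocytes (3.65, adjusted p = 0.0185) and lower in Ly6C-high TAM than in colon macrophages (-3.22, adjusted p = 0.0282). Its Ly6C-high TAM replicates were 7.14 and 9.43. Procr, the endothelial protein C receptor, passed in no comparison, with 7.82 and 9.31 in Ly6C-high TAM and 7.03 and 6.80 in spleen monocytes.

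Each member was compared with 1212 or 1213 named genes that had an SD of 1 or more and a probe set naming no other gene. Predicted and unnamed transcripts were left out. The genes most like each member over the 8 arrays were ranked by Pearson's r. The arrays come in pairs of 1 population each, so these values describe the pattern and carry no test. Plau was most like Got1 (r = 0.997), a cytosolic aminotransferase gene, which had 9.29 and 9.32 in spleen monocytes and 11.92 to 12.42 elsewhere, followed by Pmepa1 (0.995) and Pdgfa (0.994). F3 was most like Slc16a1 (0.996), a monocarboxylate transporter gene, B3gnt3 (0.992) and Neo1 (0.990). F5 was most like Il17ra (0.988), Lilra6 (0.987) and Padi4 (0.984). Thbd was most like Il12rb2 (0.985), Ace (0.966) and F5 itself (0.966). F10 was most like the Ly6 family gene Ly6i (0.994), Ltb4r1 (0.990), a leukotriene receptor gene, and S100a4 (0.987). F7 was most like Aqp9 (0.972), Gbp2 (0.970) and Ifit2 (0.962), of which Gbp2 and Ifit2 are interferon-inducible. Serpinb2 was most like Spatc1 (0.965), Olr1 (0.954) and Ccl24 (0.938). Olr1 also headed the list of Plaur (0.895), and F13a1 was most like Abcd2 (0.946). Among the 9 genes themselves, F5 and Thbd had r = 0.97 and Plau and F5 r = -0.88.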

How the data were processed

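Total RNA from 8 sorted samples was hybridised to Affymetrix arrays, 1 sample per array. The deposited values are log2 expression values made by the authors with RMA in Partek 6.6, per the submitters' processing notes. The genome build is not given in the sources used here. Values for 35556 probe sets came from the series matrix, and symbols from the deposited annotated table, updated through RefSeq accessions (21023 of 24692 matched). That table's 8 value columns match no sample label and were not used. A gene took its probe set with the highest mean, giving 21442 genes.

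limma 3.58.1 (R 4.3.3) was fitted to all 8 arrays with a mean per population and empirical Bayes moderation (residual degrees of freedom 4, prior 2.64). Benjamini-Hochberg adjustment ran over all genes. A call needed at least a 2-fold difference at an adjusted p no higher than 0.05, the criteria of the submitters' design notes. The interaction had no fold limit. The fit was tested on simulated data. Replicate origin is not labelled for the tumour arrays, so p-values measure only the spread between these samples. The number of arrays limits the precision.

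The members and lists were chosen with earlier results of these data known. The text names all 9 members, 6 further genes whatever their values where measured, the 4 called list genes with the largest fold per comparison, and the 3 genes most like each member. A result that this rule names is not reported here. Plgrkt was among the 3 listed genes not analysed here. Neighbouring genes and values of single markers were added after the values were seen. Promoter sequences are RefSeq's (GRCm38.p6).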

Additional observations from a re-analysis of the deposited data

Results flagged for a closer look

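The tumour difference of the mature cells (F4/80-high TAM minus colon macrophages) differed from that of the Ly6C-high cells (Ly6C-high TAM minus spleen monocytes) by a limma interaction test in 3 of the 9 genes. Of all genes, 6.56% were called in that test. Plau differed by -3.31 (adjusted p = 0.00324), with no change called in the mature cells and a rise in the Ly6C-high cells. F3 differed by -3.72 (adjusted p = 0.0358), beside an epithelial marker mean that was also highest on the colon arrays. F5 differed by 2.59 (limma adjusted p = 0.00798), with a fall called in the Ly6C-high cells. The F3 call was lost in 7 of the 16 other settings that tested it, and the F5 call in 2 of 15. The Ly6C-high cells were compared between colorectal tumour and spleen, so tumour and organ cannot be told apart there.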

How the results depend on the processing

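Of 22 calls of single genes (19 between populations and 3 of the interaction), 11 held in every one of the 17 other settings that tested the gene, and none of the 22 changed sign. All 9 genes have 1 probe set, so averaging probe sets changed only the adjustment. Leaving out an array changes the estimate of the spread and the arrays it rests on, also where the difference stays the same. The cause of lost or gained calls was not tested. When arrays were left out singly, the number of members called ran from 0 to 3 (F4/80-high TAM minus colon macrophages), 1 to 5 (Ly6C-high TAM minus spleen monocytes), 0 to 3 (between the tumour populations), 2 to 5 (F4/80-high TAM minus spleen monocytes) and 1 to 4 (interaction). The other listed genes ran from 0 to 7, 5 to 19, 0 to 1 and 7 to 14 in the first 4 of these, and from 7 to 15 in Ly6C-high TAM minus colon macrophages. With all probe sets tested, 1 member was called in F4/80-high TAM minus colon macrophages, 3 in Ly6C-high TAM minus spleen monocytes, and 8 listed genes in Ly6C-high TAM minus colon macrophages. The filter on dim genes left Serpinb2 and F5 untested. The 3 other members called in Ly6C-high TAM minus spleen monocytes kept their calls under it. A fit of only the populations compared left 3 members in Ly6C-high TAM minus spleen monocytes, and 4 listed genes in Ly6C-high TAM minus colon macrophages. Counts without both tumour replicate 2 arrays are not given, since each tumour population is then a lone array. Calls over all genes were counted only for the main fit, median centring and quantile normalization. Counts in the other settings therefore have no share of all genes beside them.

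A replicate block over all arrays gave 3 members in F4/80-high TAM minus colon macrophages and 0 between the tumour populations, and moved no count by over 1.5 times. The labels do not tie a replicate number to an animal, and replicate 2 minus replicate 1 correlated across genes at 0.77 between the tumour populations but at -0.15 between F4/80-high TAM and spleen monocytes. Blocking on replicate in the tumour arrays only (a replicate block) called 3 members and 2 listed genes between the tumour populations. It called 7 and 20 in F4/80-high TAM minus spleen monocytes, and 7 members in the interaction. Of the listed genes it called 9 in F4/80-high TAM minus colon macrophages and 17 in Ly6C-high TAM minus spleen monocytes. The share of all genes called under it was not computed.

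The differences that changed sign were uncalled. Median centring gave 0.0605 for Plau in F4/80-high TAM minus colon macrophages, and quantile normalization -0.0262 for Plaur there and 0.0867 for F7 in the interaction. Without both tumour replicate 2 arrays, Plaur was -0.40 in F4/80-high TAM minus colon macrophages, F13a1 0.0129 between the tumour populations and Serpinb2 -0.21 in F4/80-high TAM minus spleen monocytes. With single arrays left out, F4/80-high TAM minus colon macrophages ran from -0.25 to 0.0943 for Plau, -0.40 to 0.61 for Plaur and -0.27 to 1.35 for F13a1. F4/80-high TAM minus spleen monocytes ran from -0.75 to 0.26 for Plaur and -0.21 to 0.30 for Serpinb2, F13a1 ran from -1.09 to 0.54 between the tumour populations, and the interaction from -0.92 to 0.0947 for Plaur and -0.84 to 0.61 for F7. Median centring shifted the median of all genes by 0.14 in F4/80-high TAM minus colon macrophages and by 0.13 in F4/80-high TAM minus spleen monocytes, and turned the former's split over all genes from 573 higher and 797 lower to 811 and 637. Quantile normalization turned the split between the tumour populations from 36 and 21 to 26 and 25.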

Other observations

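The genes beside 3 of the members had other patterns over the arrays than the member. Proz, next to F10, had values between 6.02 and 6.6 on all 8 arrays. Selp, the P-selectin gene next to F5, had 7.24 and 7.72 in colon macrophages and 6.41 and 6.19 in spleen monocytes, where F5 was highest. Cd93, next to Thbd, had 12.59 and 12.48 in colon macrophages, 12.49 and 12.29 in F4/80-high TAM, 11.57 and 11.54 in Ly6C-high TAM and 11.66 and 11.94 in spleen monocytes. These neighbours were chosen after their values were seen.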
